A study of Mus musculus with 2 samples.

Results

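Collagen genes encode the chains that wind into the triple helices of the collagens, the main structural proteins of the extracellular matrix. They were taken as the autosomal protein-coding genes of GENCODE M21 (GRCm38/mm10) whose symbol is Col, a number, a and a number, which gave 42 of 20807 autosomal protein-coding genes. Of these, 11 encode fibrillar chains, 4 encode chains of the basement membrane collagen IV, and 27 belong to other types. *Col4a5* and *Col4a6* lie on chromosome X and were left out by this rule.

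Chromatin accessibility was measured by ATAC-seq, in which the transposase Tn5 inserts sequencing adapters into open DNA. The samples were hearts of wildtype FVB mouse embryos at E11.5 (49 to 51 somites), microdissected in pairs, and each of the 2 replicates held about 50000 cells from 2 pooled hearts. The replicates form 1 group, so there was no other genotype, treatment or stage to compare, and no test between samples could be made. The whole organ was used, so a region open in few cells could not be told apart from a region weakly open in many, and RNA levels were not analysed here.

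Fibrillar collagens I, II, III, V and XI assemble into the cable-like fibrils that give tissue its tensile strength. Collagen IV forms the flexible sheet of the basement membrane, which in the heart underlies the endocardium and the coronary endothelium and surrounds cardiomyocytes. The other types decorate fibrils, form beaded filaments or short networks, span the cell membrane or anchor the membrane sheets to the stroma. In the embryonic heart the cushions that become valves are filled with matrix, and the mesenchyme of cushions and epicardium makes much of the collagen of the later organ.

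Replicate 1 held 118027 peaks and replicate 2 held 114783, of which 81.0% and 82.8% overlapped a peak of the other list. The overlaps gave 98924 shared regions, 96639 of them on autosomes. Each peak carries a fold enrichment, which is its highest read pileup divided by 1 background level for the genome. In each list all values were whole multiples of a fixed step, 0.272 in replicate 1 and 0.251 in replicate 2 (tolerance 0.05 of a step), so that equal values of different genes are ties. Against a share of 68.8% over all autosomal protein-coding genes, starts of cardiomyocyte genes (12 of 12), of endocardial and endothelial genes (6 of 6), of epicardial genes (5 of 5) and of cushion mesenchyme genes (5 of 5) held shared regions, as did 3 of 4 blood genes (all but *Ptprc*). Of 7 genes of tissues outside the heart, 2 did, *Sox1* and *Myod1*, with fold enrichment of at most 7.04 in either replicate, while *Afp*, *Alb*, *Krt5*, *Myf5* and *Neurod1* had none. Some heart genes were as low, such as *Tbx5* (5.43 and 4.78 in replicates 1 and 2) and *Pecam1* (4.89 and 3.77). The medians were 17.0 and 15.6 in cardiomyocyte, 12.5 and 11.6 in endocardial and endothelial, 10.9 and 8.30 in epicardial and 14.7 and 13.1 in cushion genes.

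Nearly every collagen gene had an accessible start in the E11.5 heart. A shared region lay within 1 kb of an annotated start in 39 of 42 collagen genes (92.9%), against 68.8% of all autosomal protein-coding genes. All 11 fibrillar genes and all 4 collagen IV genes had one, as did 24 of 27 of the other types. *Col10a1*, whose product marks hypertrophic cartilage, and the collagen VI genes *Col6a4* and *Col6a5* had none. In neither replicate did a peak lie over their outermost starts, which fell in peak-free stretches of 45.01, 30.9 and 82.9 kb that held no other outermost gene start.

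Collagen genes have many annotated starts, with a median of 4 against 3 for all genes, and each start is a further chance to meet a region. They are also long, and among genes at least as long as the median collagen gene 21 of 21 collagen genes had a start region, against 1902 of 2068 genes (91.97%). With the outermost start alone the count was 35 of 42 (83.3%), against 64.6% of all genes. Among genes with at least 4 starts it was 23 of 24 collagen genes, against 89.2% of all such genes. *Col25a1*, *Col9a1*, *Col28a1* and *Col17a1* had a region at an internal start and none at the outermost start. The count rests in part on weak peaks. When only peaks with a q-value of at most 1e-10 in each list were kept, it fell to 25 of 42 (59.5%), below the 63.7% of all genes. By class this was 9 of 11 fibrillar, 2 of 4 collagen IV and 14 of 27 other genes.

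The start regions of collagen genes were weaker than those of most genes. Over the 39 genes with a region at a start, the highest value at a start had a median of 9.78 in replicate 1 and 8.80 in replicate 2, taken in each replicate by itself. Values of pairs below are given in this order. Over all genes with a region the medians were 24.4 and 24.6. A fold enrichment of at least 10 in both replicates was reached by 16 of 42 collagen genes (38.1%), against 56.8% of all genes. Fibrillar genes had medians of 13.3 and 13.8, collagen IV genes 12.5 and 8.80, and the other types 8.83 and 7.92, and the ranges of the 3 classes overlapped. Of these, 6 of 11 fibrillar, 2 of 4 collagen IV and 8 of 27 other genes reached 10 in both replicates.

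**Figure D1:**
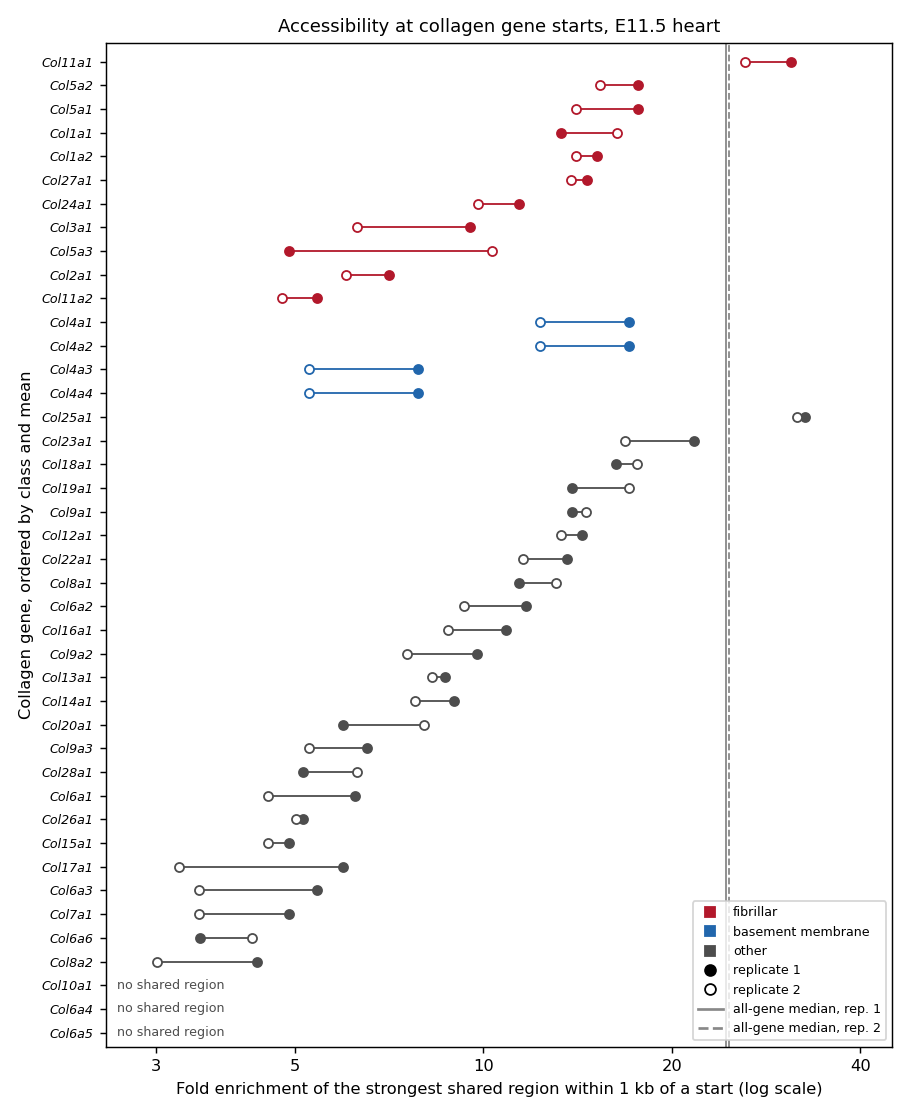
Fold enrichment of the strongest shared region within 1 kb of a start for the 42 collagen genes, on a log axis, with filled points for replicate 1 and open points for replicate 2 and colours for the 3 classes. Vertical lines mark the medians over all autosomal protein-coding genes with a region, 24.4 and 24.6, and only *Col25a1* and *Col11a1* have both points to the right of them.

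The replicates ranked the genes alike. Across the 39 collagen genes Spearman's rho between them was 0.886 (a description, since the genes share both libraries), and the log2 ratio of replicate 1 to replicate 2 had a median of 0.22 and an SD of 0.36. Replicate 1 was higher in 30 genes and replicate 2 in 9. The widest gap, 2.11-fold, was that of *Col5a3*. Genes are called separated below where both values of the higher gene exceed both values of the lower, which held for 571 of 741 pairs of collagen genes.

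Among the fibrillar genes *Col11a1* stood highest, at 31.0 in replicate 1 and 26.1 in replicate 2. It encodes a chain of collagen XI, the minor fibrillar collagen that sits inside collagen II fibrils and limits their width, and its start region spanned 3000 bp (chr3:114029659-114032658). Its partner *Col11a2* had the lowest mean of the class, at 5.43 and 4.78, and *Col2a1*, the cartilage collagen that both assemble with, had 7.06 and 6.03. *Col11a1* was separated from both, with a mean 5.59 times that of *Col11a2* and 4.36 times that of *Col2a1*.

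The type I chains were nearly level. *Col1a1* had 13.3 and 16.3, and *Col1a2* had 15.2 and 14.1, so the values of this pair, which assemble as a fixed heterotrimer in connective tissue, overlapped. The region of *Col1a1* (chr11:94936812-94937982) began inside the gene, and its summit lay 1107 bp past the outermost start in replicate 1. *Col3a1*, the chain of the collagen III that is woven into type I fibrils of soft tissue, had 9.51 and 6.28, and it was separated from both type I genes.

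Type V collagen starts the assembly of type I fibrils. *Col5a1* had 17.7 and 14.1 and *Col5a2* had 17.7 and 15.3, which overlapped. *Col5a3*, which encodes a chain found in fewer tissues, had 4.89 and 10.3 and was separated from both. The later-described fibrillar genes *Col27a1* and *Col24a1* had 14.7 and 13.8, and 11.4 and 9.80.

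The collagen IV genes are arranged head to head in pairs, and each pair shared its strongest start region. *Col4a1* and *Col4a2*, the chains of most basement membranes, have outermost starts 21 bp apart on opposite strands, with their 5′ ends overlapping, and shared a region of 2110 bp (chr8:11311697-11313806) with 17.1 and 12.3. *Col4a3* and *Col4a4*, chains of the specialised membranes of kidney and lung, have starts 72 bp apart and shared a region of 1047 bp (chr1:82586571-82587617) with 7.88 and 5.28. The *Col4a1* and *Col4a2* region was separated from it, with a mean 2.24 times as high. The values of the 4 genes are thus those of 2 regions and not 4. *Col4a2* held a further region at an internal start (8.42 and 5.78).

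In the other types the highest means were those of the transmembrane collagens *Col25a1* and *Col23a1*. *Col25a1*, expressed in neurons and in developing muscle, had 32.6 and 31.7, the highest of all 42 genes and separated from every other member. Its region (chr3:130180076-130181706) lay at an internal start, with the summit 49215 bp from the outermost start, which had none. *Col23a1* had 21.7 and 16.8, and in replicate 2 it was below *Col18a1* and *Col19a1*. The other transmembrane genes were far lower, *Col13a1* with 8.69 and 8.30 and *Col17a1*, a hemidesmosome collagen of skin, with 5.98 and 3.27.

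*Col18a1*, a basement membrane collagen that carries the endostatin fragment, had 16.3 and 17.6, and its relative *Col15a1* had 4.89 and 4.53. Moving these 2 genes to the basement membrane class gave 6 of 6 genes with a start region there. Among the FACIT collagens, which coat fibrils and do not form them, *Col19a1* had 13.9 and 17.1, *Col9a1* 13.9 and 14.6, *Col12a1* 14.4 and 13.3, *Col22a1* 13.6 and 11.6, and *Col16a1* 10.9 and 8.80. All 9 FACIT genes had a start region.

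The chains of type IX fell into steps. *Col9a1* was separated from *Col9a2* (9.78 and 7.54), and *Col9a2* from *Col9a3* (6.52 and 5.28), although the 3 chains make 1 protein. The *Col9a1* values are those of an internal start, with the summit 18594 bp from the outermost start, which had no region. *Col9a2* and *Col9a3* had theirs at the outermost start, so the place of *Col9a1* in this order holds only for any start. In type VIII, the network collagen of vessel walls and valves, *Col8a1* had 11.4 and 13.1 and *Col8a2* had 4.35 and 3.02, a separation of 3.32-fold in the means. In type VI, a microfibril around most mesenchymal cells, *Col6a2* had 11.7 and 9.30 and was separated from *Col6a1* (6.25 and 4.53), *Col6a3* (5.43 and 3.52) and *Col6a6* (3.53 and 4.27). Some partner chains were thus separated in types V, VI, VIII, IX and XI, and those of type I were not.

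The remaining genes had weak start regions. The FACIT gene *Col14a1* had 8.96 and 7.79, and *Col20a1* of the same group had 5.98 and 8.04. *Col28a1* had 5.16 and 6.28, *Col26a1* had 5.16 and 5.03 in different regions, and *Col7a1*, whose product forms the anchoring fibrils below the epidermis, had 4.89 and 3.52.

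To show what lies under these starts, bases just upstream of the outermost start (in *Col25a1*, of the internal start) are printed for a strong fibrillar start (*Col11a1*), a CpG-rich and a CpG-free fibrillar start (*Col5a1* and *Col3a1*), the 3 other types *Col25a1*, *Col23a1* and *Col8a1*, and the stretch between *Col4a3* and *Col4a4*. RefSeq's promoter table for GRCm38 holds 33 of the 42 genes, and its sequences equal those of the genome used. *Col12a1*, *Col14a1*, *Col1a1*, *Col22a1*, *Col26a1*, *Col2a1*, *Col4a3*, *Col5a2* and *Col9a3* have no entry. A shared region covers all bases shown, save in *Col3a1*, where it covers 80 of 100. Each is written 5′ to 3′ on the strand named, and capitals mark a GC box (GGGCGG) or a CCAAT box (CCAAT) on either strand.
*Col11a1*, chr3:114030440-114030539, plus strand: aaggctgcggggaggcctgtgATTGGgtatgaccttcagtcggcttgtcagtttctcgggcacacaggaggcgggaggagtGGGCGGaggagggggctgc
*Col5a1*, chr2:27886325-27886424, plus strand: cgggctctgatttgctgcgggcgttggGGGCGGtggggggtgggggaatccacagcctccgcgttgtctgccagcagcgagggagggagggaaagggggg
*Col3a1*, chr1:45311438-45311537, plus strand: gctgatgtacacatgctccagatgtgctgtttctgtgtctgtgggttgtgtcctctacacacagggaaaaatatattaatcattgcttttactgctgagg
*Col25a1*, chr3:130180745-130180844, plus strand: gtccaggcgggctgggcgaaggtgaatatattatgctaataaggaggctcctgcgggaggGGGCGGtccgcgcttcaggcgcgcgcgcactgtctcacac
*Col23a1*, chr11:51289820-51289919, plus strand: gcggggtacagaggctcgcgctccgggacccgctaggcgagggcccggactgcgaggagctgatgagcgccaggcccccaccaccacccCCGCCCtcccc
*Col8a1*, chr16:57754738-57754837, minus strand: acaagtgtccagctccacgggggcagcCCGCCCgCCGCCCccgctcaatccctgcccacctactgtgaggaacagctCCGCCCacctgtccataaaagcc
*Col4a3* and *Col4a4*, chr1:82586850-82586920, plus strand: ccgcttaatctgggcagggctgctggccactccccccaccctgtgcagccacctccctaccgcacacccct

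The *Col11a1* stretch holds a CCAAT box and a GC box, *Col8a1* holds 3 GC boxes, and the *Col3a1* stretch and that between the collagen IV genes hold neither. CpG content, taken as observed over expected CpG in the 300 bp from 250 bp before to 50 bp after the outermost start of each gene, had a median of 0.428 in the 42 collagen genes and 0.540 in all 20807. It was over 0.6, as in CpG islands, in 11 of 42 collagen genes (26.2%) and in 45.5% of all genes. Fibrillar genes had a median of 0.358, collagen IV genes 0.689 and the other types 0.422. *Col4a1* was highest of the collagen genes at 0.902, and *Col3a1*, *Col9a1* and *Col28a1* had no CpG in this window.

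Among all genes start regions were less frequent at low CpG content, and most collagen genes of low CpG content had one. At a CpG content of at most 0.6, a region within 1 kb of any start was found in 28 of 31 collagen genes (90.3%) and in 47.3% of all such genes. Over 0.6 it was found in 11 of 11 and in 94.5%. CpG content is that of the outermost start, whereas in *Col25a1*, *Col9a1*, *Col28a1* and *Col17a1* the region lay at an internal start. A region over the 300 bp themselves was found in 21 of 31 collagen genes (67.7%) and in 33.6% of all genes at or below 0.6. Above it the share was 11 of 11 and 92.8%. The enrichments and rho values that follow also use the region at any start. The lower enrichment of collagen starts was seen on either side of 0.6. At or below it, the median fold enrichment was 9.64 and 7.92 in collagen genes and 16.8 and 16.3 in all genes with a region, and above it the medians were 14.4 and 12.3 against 28.0 and 28.4. Across genes with a region, Spearman's rho of CpG content and mean fold enrichment was 0.112 in the 39 collagen genes and 0.385 in 14309 genes, given as a description because promoters share both libraries and both measures move with base composition.

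**Figure D2:**
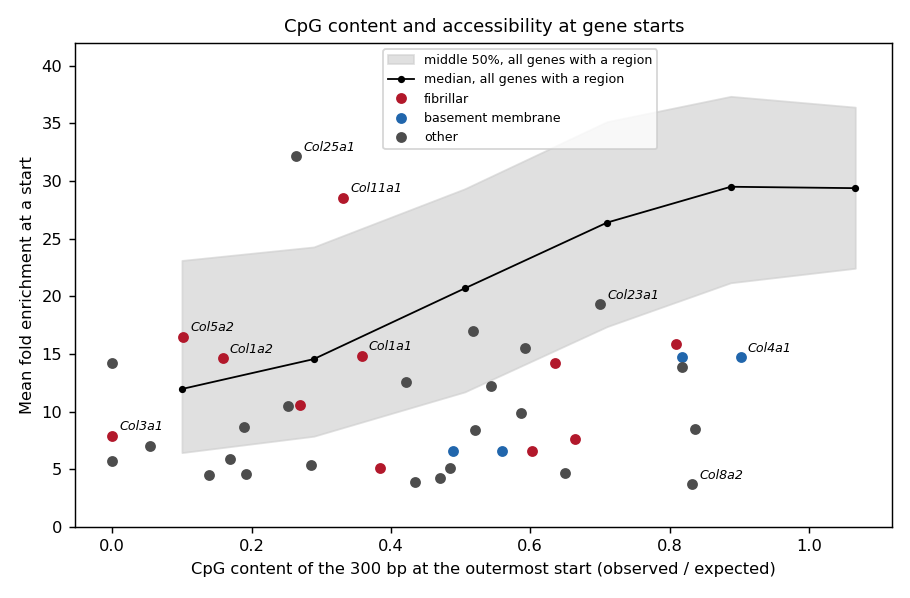
Mean fold enrichment of both replicates at a start against the CpG content of the 300 bp at the outermost start. In *Col25a1*, *Col9a1*, *Col28a1* and *Col17a1* the enrichment is that of an internal start, away from these 300 bp. Coloured points are the 39 collagen genes with a region, the black line joins medians of all genes with a region in 6 bins of CpG content, and the grey band holds the middle 50% of them. At a CpG content of 0.6 or more every collagen point lies below the black line.

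A search for 7 motifs in the same 300 bp, on both strands, gave shares in collagen genes near those in all genes for most. A GC box was in 21 of 42 (50.0%, against 43.7% of all genes), a CCAAT box in 16 (38.1%, against 38.6%), a TATA box (TATAAA) in 6 (14.3%, against 12.7%), a TEAD core (GGAATG) in 6 (14.3%, against 13.5%) and a GATA motif (AGATAA) in 4 (9.52%, against 9.94%). An AP-1 motif (TGANTCA) was in 1 (2.38%, against 6.88%) and a SOX motif (ACAAAG) in 5 (11.9%, against 17.1%). The 6 genes with a TATA box were *Col1a1*, *Col3a1*, *Col10a1*, *Col13a1*, *Col14a1* and *Col17a1*. No motif contains another, and a match is only a match of letters.

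The gene body plus 50 kb on each side was next taken as the locus of a gene. The 42 loci formed 35 separate stretches with 505 distinct shared regions, and all 42 held at least 1 region (89.3% of all genes). The replicates of these 505 regions had a Spearman's rho of 0.777 and an SD of the log2 ratio of 0.50. The median density was 6.002 regions per 100 kb in collagen loci and 5.62 in all, and 23 of 42 were above the latter. Fibrillar loci had a median of 7.86, collagen IV loci 8.58 and the other types 5.64. As collagen genes are long, with a median of 110.85 kb against 17.6 kb, genes of at least that length were also taken, and there the medians were 5.64 in 21 collagen loci and 4.62 in 2068 loci of all genes. The order was not stable. With the gene body alone the median was 4.62 in collagen genes, 4.44 in fibrillar genes, 4.76 in the other types, 7.53 in collagen IV genes and 6.02 in all genes, and with a q-value of at most 1e-10 it was 2.62 in collagen loci and 2.83 in all. The collagen IV median was above that of all loci in each of the 9 settings compared, but it lies between 2 pairs of overlapping loci. With flanks of 50 kb, 2 of the 4 loci, *Col4a1* and *Col4a2*, were above the median of all loci. *Col4a3* and *Col4a4* were below it, so the higher density is not one of the class as a whole.

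Within the other types the median density was 3.03 in the 6 collagen VI loci, 7.92 in the 9 FACIT loci and 7.99 in the 2 multiplexin loci. The multiplexins *Col18a1* (13.1) and *Col15a1* (2.93), which encode closely related proteins, lay far apart. Loci of neighbouring genes overlap, and their densities are not independent. *Col9a1* and *Col19a1* shared 9 regions (64.3% and 60% of their own), *Col4a3* and *Col4a4* 6 (75% and 50%), *Col6a6* and *Col6a5* 4 (25% and 66.7%), and *Col3a1* and *Col5a2* 3 (27.3% and 42.9%).

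**Figure D3:**
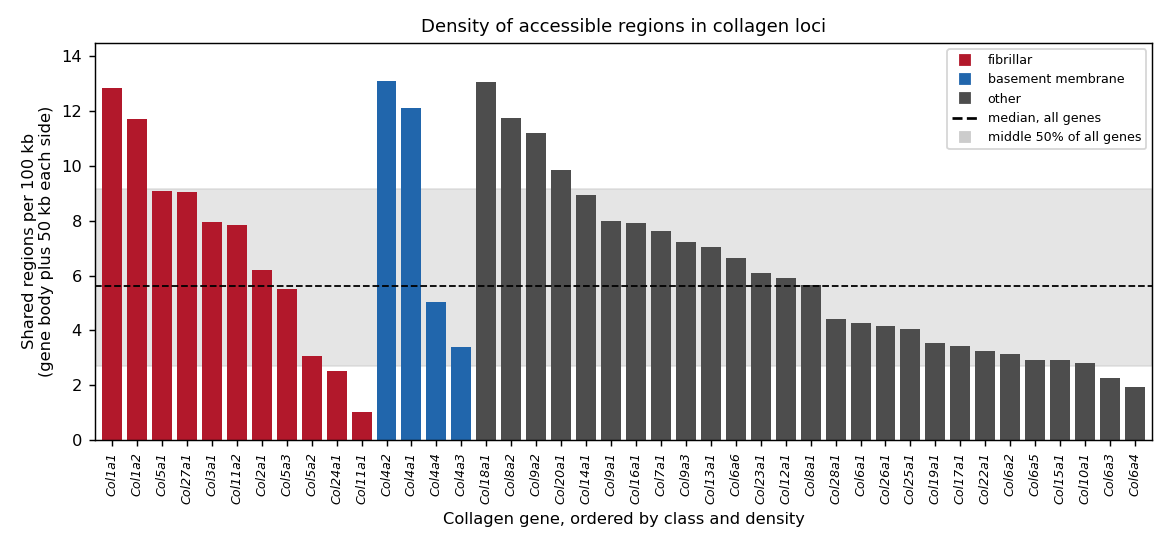
Shared regions per 100 kb in the gene body plus 50 kb on each side, as bars from 0, for the 42 collagen genes by class. The dashed line is the median of all autosomal protein-coding genes, 5.62, and the grey band holds the middle 50% of them, 2.69 to 9.17. Only *Col4a2*, *Col18a1*, *Col1a1*, *Col4a1*, *Col8a2*, *Col1a2*, *Col9a2* and *Col20a1* rise above the band.

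The densest loci were those of *Col4a2* and *Col18a1* (31 and 28 regions, 13.1 per 100 kb each), *Col1a1* (15 regions, 12.8), *Col4a1* (26 regions, 12.1) and *Col8a2* (15 regions, 11.8). *Col4a1* and *Col4a2* share 14 regions, and 5 of the 15 regions of *Col1a1* and of *Col8a2* lay at starts of other genes. The sparsest were *Col11a1* (3 regions, 1.03), *Col6a4* (4 regions, 1.93), *Col6a3* (4 regions, 2.25), *Col24a1* (9 regions, 2.50) and *Col10a1* (3 regions, 2.80). *Col11a1* thus had the strongest fibrillar start and the lowest density of the 42. Beside its start it held a region in intron 1 (10.6 and 7.04), 22.1 kb along the gene, and a region in intron 3 (16.3 and 15.3), 35.2 kb along. Neither list held a peak from 35.6 kb inside this gene over the next 724 kb, of which 205 kb lay in its locus, and that stretch held no other outermost gene start. There were 89 autosomal stretches longer than 700 kb with no peak in either list.

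The gene body held the largest share of the regions of collagen loci. Of 541 pairs of gene and region, 219 (40.5%) were in the gene body away from starts, against 22.2% for all genes. A further 62 (11.46%) lay at a start of the gene, against 11.7%, and 62 (11.46%) at a start of another gene, against 24.5%. The flanks held 110 upstream (20.3%, against 19.7%) and 88 downstream (16.3%, against 22.0%). The share in the gene body was 30.8% in fibrillar, 44.2% in collagen IV and 43.4% in other loci. Gene length enters this share directly, and with gene bodies pooled, body regions away from starts came to 4.52 per 100 kb in collagen genes and 4.06 in all genes. By class they came to 3.82 in fibrillar, 6.48 in collagen IV and 4.43 in other genes.

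**Figure D4:**
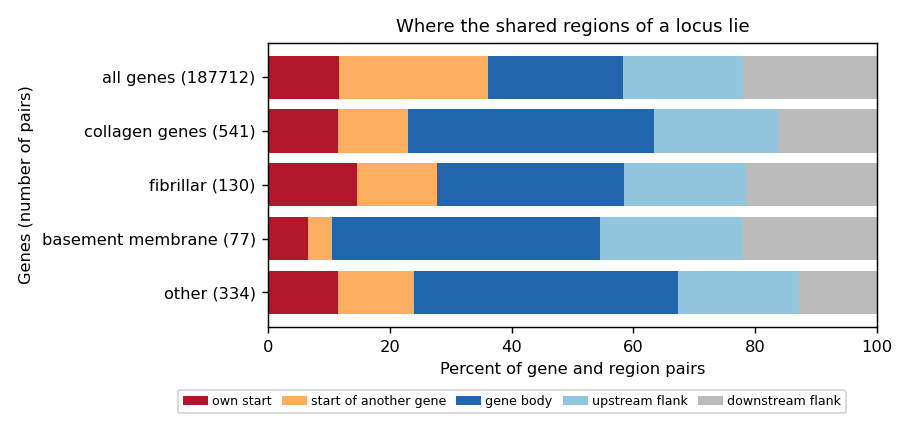
Share of gene and region pairs by place, as stacked bars that add up to 100%, for all autosomal protein-coding genes, the collagen genes and their 3 classes, with the number of pairs in parentheses. The gene body takes 40.5% in collagen loci and 22.2% in all, and the starts of other genes 11.46% and 24.5%.

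Within the gene bodies, 198 of 219 regions (90.4%) lay in introns of the longest coding transcript, 31 of them in intron 1, and 5 lay in coding exons. All 34 body regions of the collagen IV genes were intronic, 9 of them in intron 1. *Col25a1* held 20 of its 23 regions in the gene body, the strongest of them in intron 2, 207 kb along the gene, with 15.5 and 15.1. *Col1a2*, in contrast, held none in its body and 14 in its flanks, the strongest 14.7 kb upstream (17.1 and 13.8). The 385 collagen regions away from any protein-coding start had a median fold enrichment of 6.52 and 5.53, against 5.98 and 5.28 for 76461 such regions on all autosomes. At starts the order was the other way, with 7.47 and 6.28 for 60 collagen regions and 15.8 and 16.1 for 20178 regions at any start. Regions at collagen starts were also shorter, with a median of 585.5 bp against 987 bp.

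**Figure D5:**
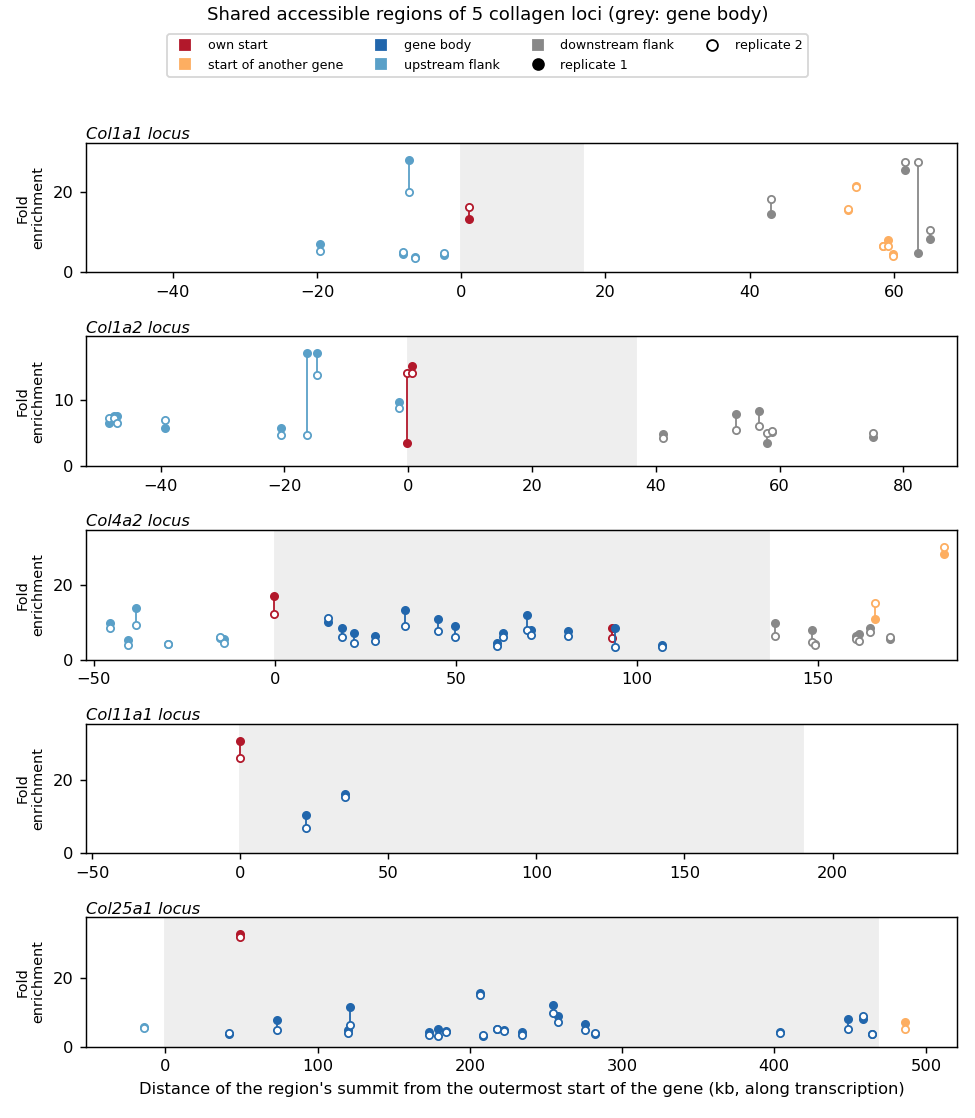
Fold enrichment of each shared region against the distance of its summit from the outermost start, in kb along the direction of transcription, for the loci of *Col1a1*, *Col1a2*, *Col4a2*, *Col11a1* and *Col25a1*. Filled points are replicate 1, open points replicate 2, a line joins them, colours give the place and grey marks the gene body. The *Col11a1* locus holds 3 regions and the *Col4a2* locus 31, and in *Col25a1* the highest point is the internal start 49215 bp along the gene.

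The 3 strongest regions away from protein-coding starts were taken in each class; having been chosen for their values, they are described only. In the *Col1a1* locus a region of 2123 bp downstream (chr11:94997206-94999328), 61.6 kb from the start of *Col1a1* and nearest to a start of *Ppp1r9b*, had 25.5 and 27.4. A region 7.21 kb upstream of *Col1a1* (chr11:94928674-94929343) had 28.0 and 19.9. The third of the fibrillar class lay 16.0 kb upstream of *Col5a3* (chr9:20830776-20831366), nearest to a start of *Rdh8*, with 19.0 and 16.1. Distance does not assign a region to a gene, and no contact or expression data were used.

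In the collagen IV class the strongest was a region downstream of *Col4a1* (chr8:11183388-11184126), 129 kb from its start, with 25.8 and 15.8. It was followed by a region in intron 1 of *Col4a3* (chr1:82631368-82631818), with 14.7 and 11.6, and by 1 in intron 37 of *Col4a4* (chr1:82476509-82477153), with 13.3 and 12.1.

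In the other types the strongest was 36.0 kb upstream of *Col26a1* (chr5:136918669-136920081), at a start of the non-coding gene *4933404O12Rik*, with 22.3 and 26.4. A region in intron 53 of *Col12a1* (chr9:79617239-79617836) had 22.0 and 24.4, and 1 in intron 35 of *Col6a6* (chr9:105697506-105698618) had 23.9 and 20.4. The start nearest to the intron 35 region of *Col6a6* is that of *Pik3r4*.

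The summit of the strongest such region of each class, with 100 bases on each side, is printed to show the sequence that carried these values. Capitals mark motifs found, a GATA motif in *Col1a1* and a CCAAT box in *Col26a1*.
*Col1a1*, chr11:94997713-94997913, plus strand: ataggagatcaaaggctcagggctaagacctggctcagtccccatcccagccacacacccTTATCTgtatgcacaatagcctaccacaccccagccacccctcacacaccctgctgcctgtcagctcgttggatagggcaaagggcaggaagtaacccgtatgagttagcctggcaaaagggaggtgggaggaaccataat
*Col4a1*, chr8:11183613-11183813, plus strand: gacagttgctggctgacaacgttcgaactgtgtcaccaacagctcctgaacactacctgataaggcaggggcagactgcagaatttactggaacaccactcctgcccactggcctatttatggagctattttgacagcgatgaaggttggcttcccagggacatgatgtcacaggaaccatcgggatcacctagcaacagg
*Col26a1*, chr5:136919132-136919332, plus strand: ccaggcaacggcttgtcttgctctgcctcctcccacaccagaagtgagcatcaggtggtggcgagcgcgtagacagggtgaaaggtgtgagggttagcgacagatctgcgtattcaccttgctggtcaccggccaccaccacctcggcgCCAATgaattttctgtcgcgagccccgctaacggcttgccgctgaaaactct

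Over the 385 collagen regions away from starts, the summit with 100 bases on each side held a TEAD core in 21.3% (16.3% of 76461 regions on all autosomes), a GATA motif in 17.1% (19.9%), an AP-1 motif in 10.6% (9.55%) and a SOX motif in 17.7% (16.8%). In the collagen IV class a TEAD core was in 15 of 51 regions (29.4%), in the fibrillar class in 19 of 91 (20.9%) and in the other types in 48 of 243 (19.8%). GC boxes were in 8.31% of the collagen regions, against 7.17% of all, with 13.2% in the fibrillar class, 5.88% in collagen IV and 6.996% in the other types.

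Genes that modify, trim and bind collagen were taken as 5 lists, to be read against a start region in 68.8% of all genes and all-gene medians of 24.4 and 24.6. The median enrichment at starts was higher in each list than in the collagen genes. It was near the all-gene median in the first list below and under it in the other 4. Of 17 genes for hydroxylation, folding and secretion of the chains, 16 had a start region, with medians of 25.4 and 24.0. The highest by mean were *Colgalt1*, a collagen galactosyltransferase (44.5 and 39.5), *Ppib*, a prolyl isomerase (41.0 and 39.97), and *P3h1*, a prolyl hydroxylase (40.7 and 37.2). *P4hb*, the other subunit of the main prolyl hydroxylase, had none, but its start lay in a stretch of 137 kb with no peak in either list that held 12 outermost gene starts, and what held there is not analysed here.

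Of 14 genes for trimming and crosslinking outside the cell, 13 had a start region, with medians of 13.9 and 11.3. The highest by mean were *Loxl3*, a lysyl oxidase (21.7 and 20.6), *Adamts3*, a procollagen peptidase (20.9 and 21.1), and *Sparc*, a collagen-binding protein (19.0 and 17.8). *Loxl2* had none, and its start lay in a stretch of 438 kb with no peak that held 7 outermost gene starts, which is likewise not analysed here. All 8 collagen receptors had a start region (medians 14.7 and 12.8), led by mean by the integrin subunits *Itgb1* (42.6 and 43.7) and *Itga1* (28.0 and 25.6) and the receptor kinase *Ddr1* (19.8 and 15.6), which the integrin subunit *Itga2* (17.9 and 17.3) overlapped.

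All 8 autosomal genes of fibril-associated proteins had a start region, with medians of 10.7 and 10.8. *Fn1*, fibronectin, had 38.3 and 34.4, *Vcan*, the large proteoglycan of cushion matrix, had 28.0 and 28.7, and *Thbs1* had 17.4 and 14.6. All 16 other basement membrane genes had one, with medians of 16.3 and 15.8, and the highest by mean were *Lamc1*, a laminin chain (42.6 and 40.2), *Agrn*, agrin (38.03 and 38.2), and *Hspg2*, perlecan (21.7 and 24.9).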

How the data were processed

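Open chromatin was profiled by ATAC-seq in 2 replicates of wildtype E11.5 hearts. According to the study's methods and the submitters' processing notes, the authors trimmed single-end reads (Trim Galore 0.6.6), mapped them with Bowtie2 2.4.2 to GRCm38/mm10, removed duplicates and poorly mapped reads with SAMtools 1.12, and ran MACS2 on each replicate by itself, without pooling and without a local background. Their stated shift and extension of reads can move a summit off the Tn5 cut, so summits are not read to the base. Dropping poorly mapped reads leaves repeated sequence underrepresented.

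The deposited fold enrichment of a peak is a ratio of summit pileup to background. The −log10 p-value and −log10 q-value deposited with each peak are those of MACS2. The smallest −log10 p-values in the lists, 3.32 and 2.98, are stricter than the p-value limit stated in the methods, and the stated extension could not be matched to the peak widths, so a gene without a peak is one without a listed peak. Read totals were not analysed here, so depth is unknown and no counting interval was computed. No test was run, since there is 1 group.

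A shared region is the stretch of a replicate 1 peak that a replicate 2 peak overlaps (bedtools 2.31.1, at least 1 bp), with touching stretches merged, and it took the highest fold enrichment of its peaks in each replicate. A gene with several regions at starts took the highest value in each replicate, which in *Col26a1* came from different regions. A wide peak of either list lends its value to every shared region it enters. Starts, exons and introns came from GENCODE M21, and windows were 1 kb at starts and 50 kb beside genes. The genome was GRCm38, on which no peak ran past a chromosome end. Overlap code was tested on simulated data. Alternatives were other overlaps, p and q limits, windows, flanks, classes and single replicates. Python 3.11.15, NumPy 2.4.6, pandas 2.3.3, pysam 0.24.0 and Matplotlib 3.10.9 were used.

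The collagen genes, classes, pathway lists, markers and motifs were chosen with earlier results of these data known. Both replicate values are given for every fibrillar and collagen IV gene, for the 10 other collagen genes with the highest mean at a start, for the 3 strongest regions away from starts in each class and for the 3 highest genes of each pathway list. Genes with no region and the 5 densest and 5 sparsest loci are named. Values at starts of all further collagen genes, and values of single regions and genes beyond this rule, were added after they were seen.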

Additional observations from a re-analysis of the deposited data

How the results depend on the processing

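No paired analysis was possible because both replicates belong to 1 group. Start regions were found in 35 to 39 of 42 collagen genes and 10 or 11 of 11 fibrillar genes under other overlaps, windows, starts, a p-value of at most 0.00001 and each replicate alone (39 in each). With a q-value of at most 1e-10 they were found in 25 collagen, 9 fibrillar, 2 collagen IV and 14 other genes. The share of all genes (68.8%) was 67.5% with reciprocal overlap of at least 50%, 68.4% with the p-value limit, 63.7% with the q-value limit, 67.5% and 70.6% with windows of 0.5 and 2 kb, 64.6% at outermost starts and 69.9% to 70.1% in single replicates. Densities per 100 kb moved with most settings. With reciprocal overlap the median was 5.47 in collagen, 5.79 in fibrillar, 5.004 in other and 4.84 in all loci. With the p-value limit it was 7.07 in fibrillar, 5.46 in other and 5.29 in all loci. With the q-value limit it was 2.62 in collagen, 3.45 in fibrillar, 5.39 in collagen IV, 2.24 in other and 2.83 in all loci. With no flank it was 4.62, 4.44 (fibrillar), 4.76 (other), 7.53 (collagen IV) and 6.02 (all), with 10 kb 6.51, 8.47 (fibrillar) and 6.08 (other), and with 100 kb 7.35 (fibrillar) and 5.58 (other). Without regions at starts of other genes it was 4.70, 5.42 (fibrillar), 4.57 (other) and 3.82 (all). Single replicates gave 6.71 to 7.18 in collagen, 8.69 to 8.96 in fibrillar, 9.26 to 11.3 in collagen IV and 6.43 to 6.55 in all loci, and 6.60 in other loci in each. The collagen median fell below that of all loci with the q-value limit and with no flank, so its order is not firm. The collagen IV median was above that of all loci in 9 of 9 settings, but all of them reuse the same 4 loci. With flanks of 50 kb, *Col4a1* and *Col4a2* were above the median of all loci, and *Col4a3* and *Col4a4* were below it. The collagen IV order thus rests on 2 of 4 loci, which overlap each other. The cause was not tested. With depth unknown, a missing peak does not show closed chromatin.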
